A study of Homo sapiens with 6 samples.

Results

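The ERBB receptor system was examined in oral squamous carcinoma cells under hypoxia and normoxia through 10 genes chosen by name: the receptors EGFR, ERBB2 and ERBB3, the ligands AREG, EREG, TGFA, HBEGF, BTC and EPGN, and the feedback inhibitor ERRFI1. All 10 were among the 21776 genes of the deposited table. The cells are labelled as wild-type SCC25, an established human line from an oral squamous cell carcinoma, whereas a figure legend of the study names SCC9 beside a result of the transcriptome. Hypoxia libraries came from cells kept at 1% O2 for 12 h and normoxia libraries from cells kept for 12 h in a standard incubator with air, with 3 libraries per condition and no other agent or allele. Nothing in the labels says that the libraries came from separate cultures, so p-values measure only the spread between these libraries. As a model the libraries stand for a single cell line in culture.

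ERBB receptors are receptor tyrosine kinases of the plasma membrane that pair with each other when a ligand binds. Their ligands are made as transmembrane precursors and are released by metalloproteases, after which they act on the same or on neighbouring cells. The activated receptors feed the RAS-MAPK and PI3K-AKT pathways, and ERRFI1 (also called MIG6) binds the kinase domain of the active receptor and blocks it. In squamous epithelia this loop drives keratinocyte growth and migration, and EGFR is a drug target in head and neck cancer.

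Counted reads came to 30186813, 36076088 and 32272716 for the hypoxia libraries, in the order of their replicate numbers, which is kept below, and to 37278703, 29637189 and 29981208 for the normoxia libraries. Values are given in CPM (counts scaled to a common library total after TMM normalization) or, from the authors' table, in FPKM (fragments scaled to gene length and library total) where levels of different genes are compared. The labels were checked with CA9, a carbonic anhydrase induced by hypoxia, which was measured at 261.8, 277.2 and 292.6 CPM under hypoxia and at 32.2, 27.3 and 67.7 CPM under normoxia. Normoxia replicate 3 stood apart from the other normoxia libraries in such genes. It was the highest of the 3 for 13 of 15 hypoxia response genes, among them NDRG1 (163.3, 140.4 and 408.9 CPM in the normoxia libraries) and EGLN3, which encodes an oxygen-sensing prolyl hydroxylase (5.86, 3.74 and 10.7 CPM), though not ANGPTL4 (4.81, 5.66 and 4.97 CPM). Even so, NDRG1 was at 9007 CPM or more, EGLN3 at 609 CPM or more and ANGPTL4 at 67.7 CPM or more in every hypoxia library. The squamous label was checked with 10 epithelial markers, whose summed level was 1097, 1071 and 1087 CPM under hypoxia and 924, 936 and 982 CPM under normoxia. CDH1, which encodes E-cadherin, was the most abundant (479 ± 4.85 against 188 ± 10.9 CPM), KRT5, a basal keratin, was at 111 ± 5.49 against 126 ± 9.90 CPM, and of the 9 markers tested 4 were higher and 4 lower under hypoxia (SD, n = 3). Among all genes tested, 39.2% were called higher and 38.5% lower, which is the background for every marker list here. The largest change among them was a fall of KRT6A, a keratin of activated keratinocytes, to 0.951 ± 0.491 from 16.5 ± 3.86 CPM (log2-fold change -4.12). SFN (-0.80) and EPCAM (-0.35) fell as well, and DSG3 (1.35), CDH1 (1.35) and KRT17 (1.06) rose. KRT14, the usual keratin partner of KRT5 in basal cells, had 1 read in normoxia replicate 2 and 0 reads in the other 5 libraries. Markers of other cell types were low. Of 7 fibroblast markers 2 were tested and COL1A1, the most abundant, was called higher. Their summed level was 22.1, 18.7 and 17.3 CPM under hypoxia and 4.03, 3.18 and 5.65 CPM under normoxia. PDGFRB did not pass (0.638 ± 0.139 against 0.322 ± 0.0679 CPM, edgeR adjusted p = 0.0507), though its conditions did not overlap. LUM, not tested, had 27, 9 and 8 reads under hypoxia and 1, 1 and 2 under normoxia. DCN went the other way, with 2, 0 and 0 reads against 2, 4 and 0. COL3A1 had 2 reads or fewer in every library. Of 5 leukocyte markers 2 were tested and CD14 was called higher (5.83 ± 0.445 against 1.07 ± 0.481 CPM), but their sum, mostly CD68, was 33.6, 37.4 and 39.6 CPM against 33.6, 33.0 and 35.9 CPM, and PTPRC, the pan-leukocyte gene, had 2 reads or fewer in every library. Of 5 endothelial markers CDH5 alone was tested and called higher, at 0.950 ± 0.170 against 0.433 ± 0.271 CPM, and TEK had 3 reads or fewer in every library. CDH5 reached the filter on low counts mainly through the hypoxia libraries, where it is high, so its call is no support for a direction. Whether COL1A1, CD14, CDH5 and the other markers with more reads under hypoxia have a part in the changes described below was not tested.

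Under hypoxia the receptors and the feedback inhibitor rose, while the ligands moved apart: TGFA rose and EREG, AREG, HBEGF and EPGN fell. By edgeR's quasi-likelihood test over the 14255 genes that passed the filter on low counts, 5 of the 10 genes were higher and 4 were lower at an adjusted p under 0.05, and BTC did not pass. All 10 passed the filter. The background of this comparison was high, since 77.8% of all genes tested were called, 39.2% as higher and 38.5% as lower, so a count of 9 among 10 genes is near the rate of genes at large. In the 9 called genes the libraries of the conditions did not overlap, which held for 80.5% of all genes tested (40.6% with hypoxia higher, 39.9% with hypoxia lower). By size, the falling ligands stood further from the bulk of genes than the rising members did: 0.105% of the genes tested had a log2-fold change below that of EPGN, 0.456% below EREG, 1.48% below AREG and 2.13% below HBEGF, whereas 83.1% lay below TGFA, 87.0% below ERRFI1 and 64.6% to 71.3% below the receptors. These positions depend on direction, since large rises were more common. Beyond a log2-fold change of 1, 2840 genes were called higher and 1498 lower. The exact permutation test of single values cannot go below p = 0.1 with 3 libraries against 3, and it gave 0.1 for each of these 9 genes and 0.3 for BTC (two-sided). Because these are bulk libraries, a change in all cells and a change in the share of cells that express a gene cannot be told apart.

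**Figure D1:**
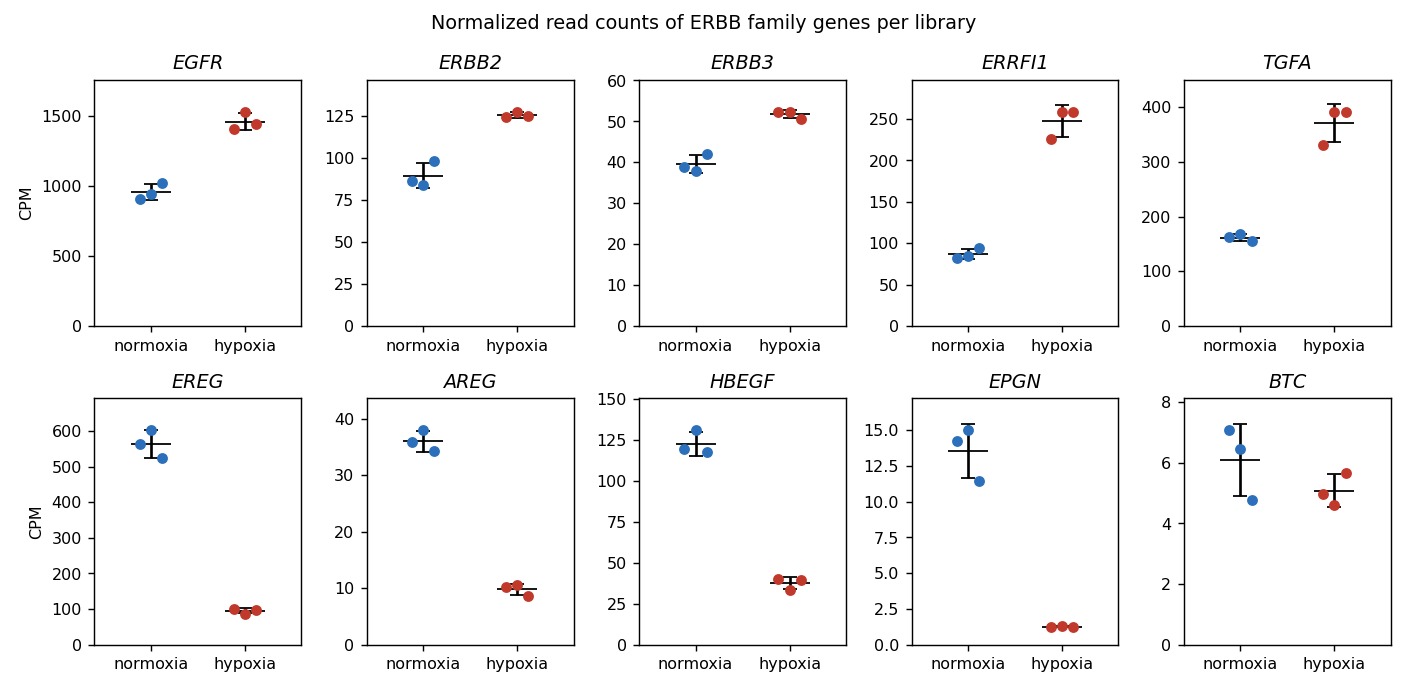
CPM (linear axis, 1 panel per gene) of the 10 ERBB family genes in the 3 normoxia (blue) and 3 hypoxia (red) libraries, with the mean (horizontal line) and SD (error bar). The conditions are separate in 9 panels and overlap in that of BTC.

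Among the receptors, EGFR, which binds EGF, TGFA, AREG and the other ligands of this set, was measured at 1411, 1532 and 1443 CPM in the hypoxia libraries and at 909, 940.0 and 1024 CPM in the normoxia libraries. Every hypoxia library lay above every normoxia library. The rise was 1.53-fold, a log2-fold change of 0.61 (with its standard error, SE, of 0.056, edgeR adjusted p = 2.17e-08). ERBB2, which has no known ligand of its own and serves as the preferred partner of the other receptors, was at 123.9, 127.3 and 124.8 CPM under hypoxia and at 86.3, 83.7 and 98.1 CPM under normoxia. Again the conditions did not overlap, with a log2-fold change of 0.49 (SE 0.061, edgeR adjusted p = 1.08e-06). ERBB3, a receptor for neuregulins with a nearly inactive kinase, was at 52.2, 52.4 and 50.7 CPM under hypoxia and at 38.7, 37.9 and 42.0 CPM under normoxia. It showed the smallest change of the receptors, a log2-fold change of 0.39 (SE 0.063, edgeR adjusted p = 2.23e-05).

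The receptors took similar shares of their summed level in both conditions. Of their summed FPKM, EGFR took 81.9% ± 0.468 under hypoxia and 80.3% ± 0.527 under normoxia, ERBB2 12.7% ± 0.289 and 13.5% ± 0.444, and ERBB3 5.43% ± 0.191 and 6.20% ± 0.145 (SD, n = 3). The sum itself was 158.8 ± 7.87 FPKM under hypoxia and 102.7 ± 6.80 FPKM under normoxia. In GENCODE v29, ERBB2 shares 571 of its 10321 exon bases with MIEN1 and 194 with PGAP3, both on the opposite strand, and the sources used here do not state whether counting used the strand. ERBB2 had 3783, 4735 and 4051 counts under hypoxia and 3210, 2396 and 2901 under normoxia. MIEN1 had 1012, 1106 and 1092 against 853, 953 and 838, and PGAP3 had 328, 492 and 393 against 187, 200 and 199. Scaled for depth, MIEN1 was at 33.1, 29.7 and 33.7 CPM under hypoxia and at 22.9, 33.3 and 28.3 CPM under normoxia, which overlap, and PGAP3 at 10.7, 13.2 and 12.1 against 5.03, 6.99 and 6.73 CPM, which do not. The part of their reads in the ERBB2 counts was not tested. EGFR shares 186 exon bases with EGFR-AS1, which had 14 counts or fewer in every library. ERBB3 shares 31 with AC034102.2 on the same strand and ERRFI1 155 with AL034417.4 on the opposite strand. Neither of these genes is among those of the deposited table, and the 6 ligands share no exon bases with another gene.

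Of the ligands, TGFA was the member that rose. TGFA (transforming growth factor alpha), a high-affinity EGFR ligand, was at 330.2, 391.1 and 391.9 CPM under hypoxia and at 161.8, 167.7 and 155.7 CPM under normoxia. All 3 hypoxia libraries stood well above the normoxia libraries, replicate 1 being the lowest of them. The log2-fold change was 1.20, a 2.29-fold rise (SE 0.065, edgeR adjusted p = 2.18e-11).

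EREG (epiregulin), a low-affinity ligand of EGFR and ERBB4, was the most abundant member per length under normoxia. It was measured at 101.4, 86.7 and 98.5 CPM under hypoxia and at 564.0, 601.6 and 524.2 CPM under normoxia. The hypoxia libraries were all far below the normoxia libraries, and EREG fell by 2.56 on the log2 scale, 5.90-fold (SE 0.068, edgeR adjusted p = 7.79e-15). Ordered by p it stood at position 20 of the 14255 genes tested, the highest position of the 10 members. AREG (amphiregulin), a heparin-binding ligand that keratinocytes use as an autocrine growth factor, was at 10.2, 10.5 and 8.63 CPM under hypoxia and at 35.8, 37.9 and 34.3 CPM under normoxia. It fell by 1.88 on the log2 scale, 3.68-fold (SE 0.092, edgeR adjusted p = 6.08e-12). Older human assemblies carried a near-identical second copy of AREG, and the table lists 1 row for the gene.

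HBEGF (heparin-binding EGF-like growth factor), which binds EGFR and ERBB4, was at 40.0, 33.2 and 39.2 CPM under hypoxia and at 119.4, 130.8 and 117.6 CPM under normoxia. Its conditions were also well apart, and it fell by 1.71 on the log2 scale, 3.28-fold (SE 0.071, edgeR adjusted p = 9.07e-13). EPGN (epigen), a low-affinity EGFR ligand, had the largest fold change of the 10 genes and a low level, with 38, 48 and 39 counts under hypoxia and 530, 429 and 338 under normoxia. These were 1.25, 1.29 and 1.20 CPM against 14.2, 14.99 and 11.4 CPM. It fell by 3.44 on the log2 scale, 10.8-fold (SE 0.164, edgeR adjusted p = 4.62e-12). On the log2(FPKM + 1) scale, which understates changes of low genes, the value was -1.80.

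BTC (betacellulin), a ligand of EGFR and ERBB4, was at 4.98, 4.597 and 5.67 CPM under hypoxia and at 7.07, 6.47 and 4.77 CPM under normoxia. Normoxia replicate 3 lay within the range of the hypoxia libraries, and the log2-fold change of -0.27 (SE 0.167) did not pass the test (edgeR adjusted p = 0.148). Without normoxia replicate 3, the library that stood apart in hypoxia response genes, it was -0.43 and passed (edgeR adjusted p = 0.0142), and with any other library left out it did not. Without that library the other 9 members kept their calls, with log2-fold changes of 0.64 for EGFR, 0.54 for ERBB2, 0.42 for ERBB3, 1.16 for TGFA and 1.55 for ERRFI1, and of -1.93 for AREG, -2.63 for EREG, -1.76 for HBEGF and -3.56 for EPGN.

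ERRFI1, the feedback inhibitor, was at 225.4, 258.9 and 258.0 CPM under hypoxia and at 82.1, 84.7 and 94.4 CPM under normoxia. It rose 2.84-fold without overlap between the conditions, a log2-fold change of 1.51 (SE 0.067, edgeR adjusted p = 1.99e-12). The ratio of ERRFI1 to EGFR in FPKM was 0.283 ± 0.0160 under hypoxia and 0.152 ± 0.00192 under normoxia (SD, n = 3).

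**Figure D2:**
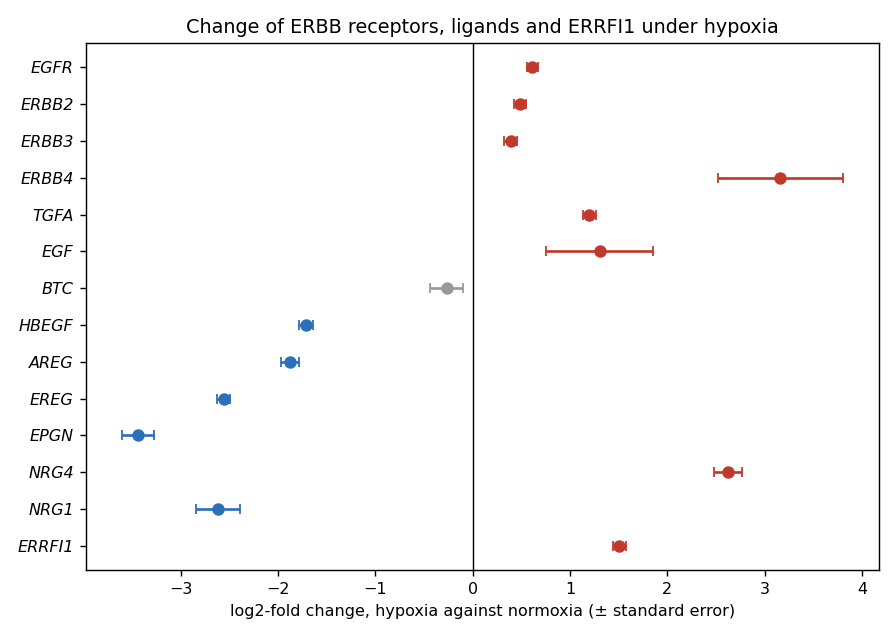
Log2-fold change (x axis, hypoxia against normoxia, with standard error) of the ERBB receptors, their ligands and ERRFI1. Red marks genes called higher, blue genes called lower and grey a gene not called. The receptors lie between 0.39 and 0.61 except ERBB4, which passed the filter through its hypoxia libraries alone. EGF passed it mainly through its hypoxia libraries.

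In FPKM, which takes account of gene length as the authors set it, the order of the members changed with the condition. Under normoxia EREG came first at 120.0 ± 7.11 FPKM (SD, n = 3), followed by EGFR at 82.4 ± 5.18, HBEGF at 51.1 ± 2.24, TGFA at 36.3 ± 1.08 and AREG at 28.7 ± 1.16. ERBB2 (13.9 ± 1.28 FPKM) and ERRFI1 (12.5 ± 0.952 FPKM) came next with overlapping libraries, and ERBB3 (6.37 ± 0.401 FPKM), EPGN (3.74 ± 0.499 FPKM) and BTC (1.40 ± 0.279 FPKM) closed the order. Under hypoxia EGFR came first at 130.0 ± 7.19 FPKM, then TGFA at 86.1 ± 8.58 and ERRFI1 at 36.8 ± 3.03. EREG (21.0 ± 1.49 FPKM) and ERBB2 (20.1 ± 0.532 FPKM) did not differ beyond their spread, nor did ERBB3 (8.61 ± 0.250 FPKM) and AREG (8.05 ± 0.913 FPKM), with HBEGF (16.1 ± 1.40 FPKM) between these pairs. BTC (1.21 ± 0.115 FPKM) and EPGN (0.355 ± 0.0172 FPKM) were last. Among all genes of the table, EREG went from rank 499 by mean FPKM under normoxia to rank 2546 under hypoxia and TGFA from rank 1769 to rank 636.

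The ligand mRNA as a whole became smaller and its composition was turned over. The summed FPKM of the 6 ligands was 244.0, 251.6 and 228.0 in the normoxia libraries and 125.5, 136.2 and 136.8 in the hypoxia libraries. EREG made up 49.7% ± 0.494 of this sum under normoxia and 15.9% ± 1.76 under hypoxia, while TGFA made up 15.1% ± 0.342 and then 64.7% ± 3.53 (SD, n = 3). HBEGF went from 21.2% ± 0.443 to 12.2% ± 1.5 and AREG from 11.9% ± 0.117 to 6.08% ± 0.822. In ratios of FPKM, TGFA stood to EREG at 0.302, 0.294 and 0.313 in the normoxia libraries and at 3.43, 4.76 and 4.19 in the hypoxia libraries. These shares describe transcripts, and no protein or released ligand was measured in the libraries.

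**Figure D3:**
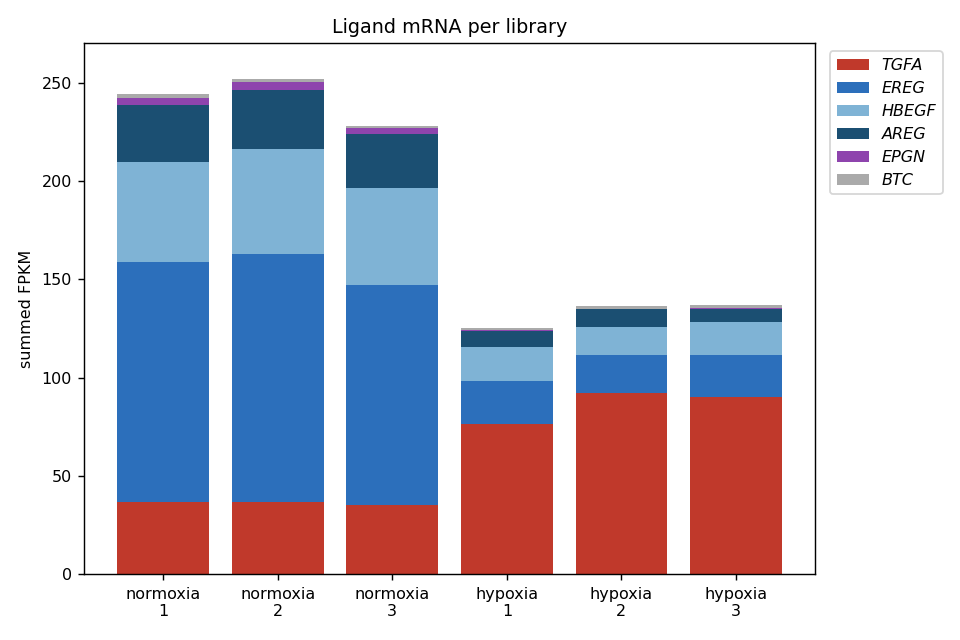
Summed FPKM of the 6 ligands in each library (stacked bars from 0, 1 colour per ligand). EREG is the largest segment in the normoxia libraries, whose sums lie between 228.0 and 251.6, and TGFA in the hypoxia libraries, whose sums lie between 125.5 and 136.8.

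The remaining receptor and ligands of the family were looked up by name. NRG4, a neuregulin that binds ERBB4, was at 12.8, 15.1 and 12.6 CPM under hypoxia and at 2.10, 2.27 and 2.23 CPM under normoxia. It rose without overlap, with a log2-fold change of 2.62 (SE 0.142, edgeR adjusted p = 2.21e-11). NRG1, a ligand of ERBB3 and ERBB4, was at 1.21, 1.18 and 0.801 CPM under hypoxia and at 7.18, 7.37 and 5.10 CPM under normoxia, and it fell by 2.62 on the log2 scale (SE 0.224, edgeR adjusted p = 8.86e-09). The pair moved in opposite directions, each without overlap. ERBB4 had 17, 34 and 18 counts under hypoxia and 5, 2 and 0 under normoxia, and EGF had 9, 19 and 25 against 5, 4 and 11. ERBB4 reached the filter on low counts only through the hypoxia libraries, where it is high, so its difference (log2-fold change 3.16, SE 0.640) is given as a description with no test. EGF was called higher with overlapping libraries (edgeR adjusted p = 0.0386). It reached the filter on low counts mainly through the hypoxia libraries, so its call is no support for a direction. NRG2 had 3 counts or fewer in every library and was not tested, and NRG3 was not analysed here.

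Of the ligands, EPGN, EREG, AREG and BTC lie in this order on human chromosome 4, with MTHFD2L between EPGN and the CXC chemokine genes. The order is that of the RefSeq table of GRCh38.p14, in which only lncRNA genes lie between these ligands. Of the 12 other genes between EPGN and BTC or among the 5 coding genes on either side, 10 were tested, 4 were called higher and 5 lower under hypoxia, with a median log2-fold change of -0.61 against 0.023 for all genes tested. These counts are near what genes at large gave, 39.2% higher and 38.5% lower. Of the 4 higher, LOC107986229, ODAPH and CDKL2 reached the filter on low counts mainly through the hypoxia libraries where they are high, so their calls are no support for a direction. On the EPGN side, the neutrophil chemokines CXCL2 (26.9 ± 2.49 CPM under normoxia, 2.62 ± 0.415 CPM under hypoxia, log2-fold change -3.35), CXCL3 (-2.33) and CXCL5 (-1.48) fell, as did MTHFD2L, a mitochondrial folate enzyme (-0.55). On the far side of BTC, RCHY1, a ubiquitin ligase gene, fell (-0.98), PARM1 did not pass (-0.66, edgeR adjusted p = 0.0991), and THAP6 (0.61), ODAPH (2.03) and CDKL2 (1.31) were called higher, the last pair from 68 counts or fewer and CDKL2 with overlapping libraries. The lncRNA gene LOC107986229, which lies between AREG and BTC, had 30, 19 and 43 counts under hypoxia and 8, 2 and 13 under normoxia (1.93, SE 0.534).

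The 250 bases before the RefSeq start of these 4 neighbouring ligand genes (GRCh38.p14) are shown because 3 of the genes fell together and BTC did not pass the test. Each sequence is written 5′ to 3′ on the strand of its gene, and capitals mark the letters ACGTG or GCGTG, the core recognized by hypoxia-inducible factors, on either strand (CACGT or CACGC when read on the strand of the gene).
EPGN, chr4:74308220-74308469, plus strand: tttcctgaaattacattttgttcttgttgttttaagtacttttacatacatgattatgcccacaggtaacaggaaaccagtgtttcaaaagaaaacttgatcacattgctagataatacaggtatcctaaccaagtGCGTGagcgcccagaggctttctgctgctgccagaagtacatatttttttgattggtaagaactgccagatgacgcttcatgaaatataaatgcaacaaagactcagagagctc
EREG, chr4:74364895-74365144, plus strand: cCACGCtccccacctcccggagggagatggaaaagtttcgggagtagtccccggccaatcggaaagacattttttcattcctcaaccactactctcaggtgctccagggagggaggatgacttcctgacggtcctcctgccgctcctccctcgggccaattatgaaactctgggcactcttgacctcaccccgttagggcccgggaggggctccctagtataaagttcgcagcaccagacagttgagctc
AREG, chr4:74444886-74445135, plus strand: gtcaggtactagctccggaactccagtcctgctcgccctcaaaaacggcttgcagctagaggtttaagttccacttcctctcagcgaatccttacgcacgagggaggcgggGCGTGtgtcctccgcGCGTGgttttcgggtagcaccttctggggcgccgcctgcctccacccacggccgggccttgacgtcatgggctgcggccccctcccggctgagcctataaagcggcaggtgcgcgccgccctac
BTC, chr4:74794524-74794773, minus strand: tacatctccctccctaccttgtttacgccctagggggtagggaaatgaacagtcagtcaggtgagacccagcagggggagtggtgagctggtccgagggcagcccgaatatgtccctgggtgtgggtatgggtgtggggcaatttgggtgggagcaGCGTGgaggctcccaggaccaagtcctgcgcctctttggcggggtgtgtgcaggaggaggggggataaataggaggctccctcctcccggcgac
AREG held GCGTG at 139 and 124 bases before the start, EPGN at 114 and BTC at 94, and EREG held it on the opposite strand at 249, as well as ACGTG 38 bases after the start, outside the stretch shown. Windows of 300 bases (250 before and 50 after the start) were on hand for 9 of the 10 members, all but ERBB3, as 11 promoters. A match was found in 6 of these 11, or 54.5%, against 48.4% of the 35116 promoters of the table (21.4% with ACGTG and 36.5% with GCGTG, both strands searched, so that CACGTG counts on each). These 6 belong to AREG, EREG, EPGN, BTC, HBEGF and TGFA, the last at the second of its starts, and the windows of EGFR, ERBB2 and ERRFI1 held none. The letters were found in ligands that fell and in the ligand that rose, and their presence is a description of sequence, not of binding.

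Genes around the receptors were counted by role in lists. Of 13 tested genes of precursor shedding and transport, TIMP3 as an inhibitor included, 7 were higher and 3 lower, with a median log2-fold change of 0.35 against 0.023 for all genes tested. The share called, 76.9%, was about that of all genes tested (77.8%, with 39.2% higher and 38.5% lower). ADAM17, the main metalloprotease for TGFA, AREG, EREG and HBEGF, was at 136.8 ± 1.51 CPM under hypoxia and 74.6 ± 3.75 CPM under normoxia (SD, n = 3), a log2-fold change of 0.87. Its cofactors RHBDF1 (0.99) and RHBDF2 (1.17), the inactive rhomboids that escort ADAM17 to the cell surface, rose as well, with RHBDF2 at 88.2 ± 1.45 against 39.2 ± 1.83 CPM. TIMP3, an inhibitor of ADAM17, rose most (1.83, SE 0.083), from 22.8 ± 2.66 to 80.7 ± 6.38 CPM, followed by the rhomboid protease RHBDL2 (1.66). The largest decrease was that of ADAM12, a protease of HBEGF (-0.44), before CNIH1, which helps export TGFA from the endoplasmic reticulum (-0.25), and the protease gene NRDC (-0.12).

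Of 26 adaptors and kinases below the receptors, 10 were higher and 13 lower, with a median log2-fold change of -0.11, beside shares of 39.2% higher and 38.5% lower among all genes tested. The docking protein GAB1 (1.34), the kinase SRC (0.87) and MAPK3, which encodes ERK1 (0.79), rose most. PTPN11, which encodes the phosphatase SHP2 (-0.75), and the RAS gene NRAS (-0.59) were among those that fell, PTPN11 from 348.2 ± 9.52 to 207.5 ± 1.80 CPM (SD, n = 3). Of 23 genes of receptor endocytosis, ubiquitination and attenuation, 6 were higher and 11 lower (73.9% called, against 77.8% of all genes tested), with a median of -0.13. The adaptor GRB7, a neighbour of ERBB2 on chromosome 17, rose most in that list, from 13.1 ± 3.26 to 61.4 ± 4.08 CPM (log2-fold change 2.23, SE 0.116). The ubiquitin ligases CBLB (1.64) and CBLC (0.76) rose, whereas NEDD4, another ligase (-0.95), the CBL-binding adaptor SH3KBP1 (-0.86) and LRIG3 (-0.97), a transmembrane protein related to LRIG1, fell. LRIG1, which promotes degradation of ERBB receptors, was also called lower (-1.53, SE 0.374), at 0.328, 0.430 and 0.493 CPM under hypoxia and 1.42, 1.26 and 0.947 CPM under normoxia.

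Of 20 genes that MAPK signalling induces, 4 were higher and 12 lower, with a median log2-fold change of -0.88 against 0.023 for all genes tested. The share called, 80.0%, was near the 77.8% of all genes tested, of which 39.2% were higher and 38.5% lower. MYC fell from 255.5 ± 5.12 to 34.9 ± 7.38 CPM (-2.88), CCND1, which encodes cyclin D1, from 451.0 ± 49.96 to 97.1 ± 3.56 CPM (-2.22), and the AP-1 gene FOSL1 from 633.3 ± 77.5 to 194.2 ± 14.4 CPM (-1.71; SD, n = 3). FOS went the other way, at 14.5, 27.5 and 25.6 CPM under hypoxia against 1.88, 1.92 and 1.99 CPM under normoxia (3.55, SE 0.211), with hypoxia replicate 1 the lowest of the 3. IL11, a cytokine gene, also rose (2.23), and SPRED1, an inhibitor of RAS signalling, by 0.16 (SE 0.067, edgeR adjusted p = 0.0445). EGR1, an immediate-early gene, did not pass (-0.05).

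**Figure D4:**
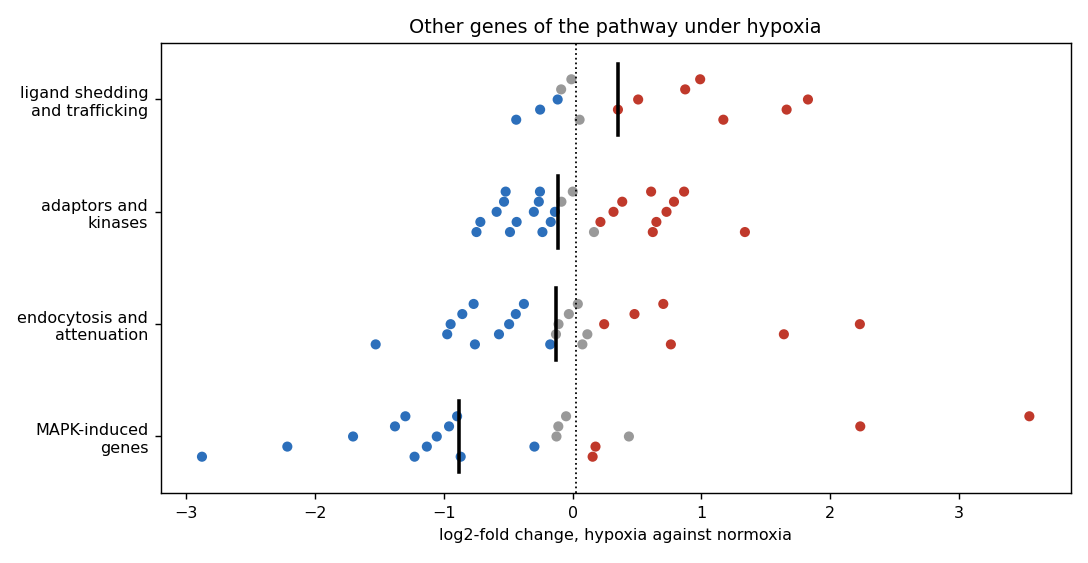
Log2-fold change (x axis) of the tested genes in lists of the pathway, 1 point per gene (red higher, blue lower, grey not called), with the median of each list as a black bar and that of all genes tested as a dotted line at 0.023. The MAPK-induced genes have the lowest median, -0.88.

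In the annotation deposited with the counts, 45 genes carry the term for the EGFR signalling pathway, including EGFR and all 6 ligands. Of the other 38 genes, 34 were tested, and 23 were higher and 7 lower under hypoxia, with a median log2-fold change of 0.41 against 0.023 for all genes tested. ERBB4 and SHC3 passed the filter on low counts only through the hypoxia libraries, and without them 21 of 32 genes were higher and 7 lower, or 65.6% and 21.9% against 39.2% and 38.5% of all genes tested, with a median of 0.39. EGF, which reached the filter mainly through the hypoxia libraries, is still among the 21 higher genes. Apart from genes of low counts such as ERBB4, the largest increases were those of GRB7, GAB1 and REPS2, an adaptor of endocytosis (1.25), and the largest decreases those of PRICKLE1 (-1.22), PTPN11 and the kinase gene AKT1 (-0.52). The term for ERBB2 signalling holds 6 genes, of which 3 rose and 3 fell, the latter being CPNE3 (-0.39), CUL5 (-0.31) and STUB1 (-0.15). PTK6, an epithelial kinase, went from 20.9 ± 1.76 to 83.6 ± 1.59 CPM (2.00, SE 0.068; SD, n = 3). The phosphatase PTPRR had a larger log2-fold change (2.86) at a lower level, 3.36 against 0.458 CPM. With 19, 16 and 9 counts under normoxia, PTPRR reached the filter on low counts mainly through the hypoxia libraries, where it is high, so its call is no support for a direction.

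Likeness between profiles was measured as the root mean square difference of mean-centred log2 CPM over the 6 libraries, which the condition dominates. ERBB2 and ERBB3 were each other's nearest member (0.0591), as were TGFA and ERRFI1 (0.179) and AREG and HBEGF (0.174). The nearest member to EGFR was ERBB2 (0.0724), the nearest to EREG was AREG (0.367) and the nearest to EPGN was EREG (0.422). Of all genes tested, SOS1, an activator of RAS, was the nearest to EGFR (0.0245), followed by ACER3 (0.0265). The nearest to AREG were ARHGAP11A (0.0458), TIMM8A (0.0537) and TFB2M (0.0613).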

How the data were processed

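RNA of 6 libraries was prepared with an mRNA library kit and sequenced. The authors deposited counts per gene, whole numbers without normalization, and FPKM of the same genes, which for all 10 members followed from the counts, 1 gene length and the library total. The submitters' processing notes name only the mouse builds GRCm38 and mm10, although the symbols and Entrez numbers are human. The aligner, counter and use of strand are not given in the sources used here.

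Counts of all 21776 genes were fitted with edgeR 4.0.16 (glmQLFit and glmQLFTest, TMM, filterByExpr, Benjamini-Hochberg at 0.05) in R 4.3.3, with condition as the only term. SE is the log2-fold change divided by the square root of F. Libraries of a condition were compared first and varied beyond counting error (chi-square per gene of 5.11 to 11.5), so none was merged. The edgeR, DESeq2 and limma fits were tested on simulated data in which far fewer genes changed than were called here. Alternatives were DESeq2 1.42.0, other filters on counts, a block for replicate number, leaving out single libraries, a minimum log2-fold change of 1 and limma 3.58.1 on log2(FPKM + 1 or 0.1).

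The members and lists were chosen with earlier results of these data known. All members, other family genes and tested neighbours of the ligand genes on chromosome 4 are named. From each other list the text names up to 3 called genes per direction, those that changed most among genes whose mean log2 CPM reached 1 and whose conditions were separate. ADAM17, RHBDF1, LRIG1, EGR1, PTPRR, SHC3 and genes that share exon bases with a member were named after their values were seen. So were, as checks of the labels and of cell type, CA9, KRT5, KRT14, COL3A1, LUM, PDGFRB, DCN, PTPRC, CD68, CDH5, PECAM1, VWF, KDR and TEK. Some genes that these rules select are not reported here. A list of hypoxia response genes was higher in 15 of 15 genes, beside 39.2% of all genes tested.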

Additional observations from a re-analysis of the deposited data

How the results depend on the processing

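The 9 members other than BTC kept their direction and an adjusted p under 0.05 under every alternative fit with no minimum change, and BTC stayed below 0 in all fits run. Requiring a log2-fold change beyond 1 left 2 members higher (TGFA and ERRFI1, since the receptors changed by less) and 4 lower, and 2840 genes higher and 1498 lower among all genes. With each library left out in turn, 5 members stayed higher and 4 to 5 were lower, while 5328 to 5770 genes were higher and 5341 to 5620 lower. BTC lay between -0.43 and -0.16 over these fits and passed without normoxia replicate 3, which also stood apart in hypoxia response genes (the cause was not tested). EPGN moved most across alternatives, from -3.56 to -1.80, the latter on log2(FPKM + 1), where the pseudocount exceeds its level under hypoxia. Same-numbered libraries did not deviate together (r = 0.0175, -0.069 and 0.00122 over genes), and the main fit used no pairing. With 3 libraries per condition, this cannot show whether same-numbered libraries were handled together. With the replicate block, 5456 genes were higher and 5419 lower, and 5 members were higher and 4 lower. Testing without a filter moved the median log2-fold change of shared genes by -0.041 and the filter of 10 counts per library by 0.078, so values as near 0 as that of EGR1 have no firm direction. Depth limits ERBB4, EGF and NRG2, which had few reads.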
